A study of Canis lupus familiaris with 6 samples.

Results

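The genes described here encode the receptors through which the colony-stimulating factors act on myeloid cells, together with a single ligand of the same group of growth factors. They were taken by name from the deposited table: CSF1R, CSF2RA, CSF2RB, CSF3R and FLT3LG, 5 of 31512 genes, and all 5 were found once. FLT3LG encodes the ligand of the receptor FLT3 and is not itself a receptor. Whole blood of 6 adult Beagle dogs aged 1.5 years was sequenced on day 30, as 1 library per dog, from 3 dogs in each group. All dogs ate the same maintenance food. The control group (CONT) received 30 g of a snack without CPP-Se, and the CPP-Se group received 30 g of this snack containing 0.03% CPP-Se, in which casein phosphopeptides hold selenium as a chelate. The comparison of the groups asked how blood gene expression differed with this supplement.

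Colony-stimulating factors are secreted proteins that drive the survival, proliferation and maturation of blood cells of the myeloid line. CSF3R, the receptor of granulocyte colony-stimulating factor, is carried mainly by neutrophils and their precursors, and CSF1R, a receptor tyrosine kinase that binds both CSF1 and IL34, by monocytes and macrophages. The receptor of granulocyte-macrophage colony-stimulating factor pairs a ligand-binding alpha chain (CSF2RA) with a signaling beta chain (CSF2RB), which the receptors of interleukin 3 and interleukin 5 share. CSF2RB and CSF3R lack kinase activity of their own and signal through JAK kinases and STAT proteins. FLT3LG is made by T cells among others and acts on early progenitors and dendritic cell precursors that carry FLT3.

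Values are FPKM, the fragments on a gene scaled by its length and by a size for each library, and how the authors set that size is not given in the sources used here. Multiplying FPKM by gene length gave whole multiples of a single step in every library (100% of genes within 0.05 of a whole number), which gave back the number of reads per gene. The libraries held 6598173 to 8067034 reads on genes. CPP-Se replicate 2 stood apart. In this dog the hemoglobin genes held 36.6% of the reads, against 48.7% to 55.9% in the other dogs, and the library size implied by its FPKM was 1.65 times its reads on genes, against 0.882 to 1.05 times in the others. In 3 dogs the implied size was below the reads on genes, so it was not a plain total of reads. Genes averaging 1 FPKM or more were tested, 9847 in all, and 3 of them passed an adjusted p under 0.05 with a fold change of at least 1.5 (limma on log2(FPKM + 1) with Benjamini-Hochberg adjustment), and all 3 were lower in the CPP-Se group. The labels call the libraries biological replicates, so the spread between libraries includes that between animals.

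In the deposited FPKM, all 4 receptor genes were lower in every CPP-Se dog than in any control dog, and FLT3LG was higher. For the receptor genes this separation depended on how the libraries were scaled. The factors of a median of ratios scaling were 0.995 to 1.02, so it changed the deposited FPKM little, and the separation was kept. It was lost for all 4 with a common sum of FPKM, with or without the hemoglobin genes, and when FPKM were scaled to reads on genes, a setting added after the data were seen. The share of all genes tested with the CPP-Se dogs below all control dogs fell with it, from 12.6% in the deposited scaling to 3.15%, 4.84% and 2.91% in these 3, so many other genes lost their separation too. Per read on genes, CPP-Se replicate 2 exceeded control replicates 1 and 2 for each receptor gene, with CSF3R, for example, at 956 FPKM against 910 and 640.0 FPKM after rescaling, while CPP-Se replicates 1 and 3 stayed below all control dogs. FLT3LG stayed separate under all 5 scalings, beside 9.72% to 13.4% of all genes tested with the CPP-Se dogs above. Below, FPKM and overlap are those of the deposited scaling. None of the 5 passed the test across all genes (limma, with Benjamini-Hochberg adjusted p of 0.162 to 0.231), where 0.0305% of the genes tested passed in the lower direction and 0% in the higher. An unadjusted p under 0.05 was found for all 5, beside 9.1% of genes tested in the lower direction and 6.87% in the higher. With a common sum of FPKM this held for 3 of the 5 and no longer for CSF1R and CSF2RB (limma adjusted p = 0.586 and adjusted p = 0.718). It held for 3 as well without the hemoglobin genes in the sum and per read on genes, and for 4 with quantile normalization. Groups that did not overlap were found in 12.6% of genes tested with the CPP-Se dogs below and in 10.4% with the CPP-Se dogs above. On the recovered reads, limma-voom called 0 of the 5, beside 0.0102% of genes tested as lower and 0% as higher. With sample quality weights it again called 0 of the 5, beside 1.06% as lower and 0.528% as higher. A negative binomial model of the same reads called all 5, but it called 4.78% of all genes tested as lower and 3.38% as higher. Whole blood is a mixture, so fewer cells of a type and less RNA per cell cannot be told apart.

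**Figure D1:**
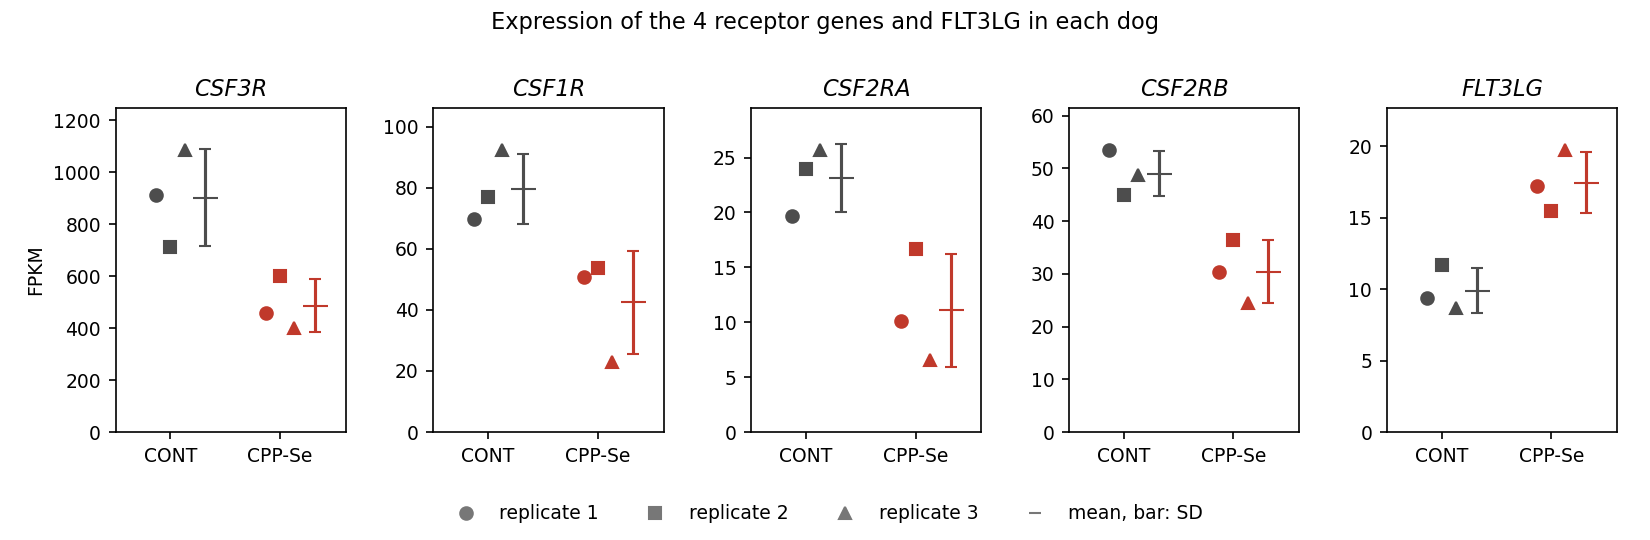
Expression of CSF3R, CSF1R, CSF2RA, CSF2RB and FLT3LG in FPKM (each axis starts at 0) in the 3 CONT dogs and the 3 CPP-Se dogs, with the marker showing the replicate number and the bar the mean ± SD. In this deposited scaling the groups do not overlap in any panel, and CPP-Se replicate 3 is the lowest dog for each receptor gene and the highest for FLT3LG.

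CSF3R (ENSCAFG00000003376, chromosome 15, 5822025 to 5831882, plus strand of the dog genome of Ensembl release 100) was the most abundant of the 5 per length, and 66 of the 9847 genes tested had more FPKM. Its expression was 912, 711 and 1084 FPKM in control replicates 1, 2 and 3, and 458, 599.7 and 400.3 FPKM in CPP-Se replicates 1, 2 and 3. All CPP-Se dogs lay below all control dogs, and the lowest control dog was only 1.19 times the highest CPP-Se dog. The control mean was 903 ± 187 FPKM and the CPP-Se mean 486 ± 103 FPKM (± SD with n = 3 in each group, as for all genes below). The log2 fold change was -0.89 (standard error 0.27, 95% interval -1.51 to -0.27, adjusted p = 0.196 from limma). Between 6764 and 24069 reads per dog lay on CSF3R, a depth at which counting error was small beside the spread between dogs.

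CSF1R (ENSCAFG00000018219, chromosome 4, 58980788 to 59010510, plus strand) encodes the receptor that carries the survival signal of monocytes and macrophages. It had 69.7, 76.8 and 92.2 FPKM in the control dogs and 50.6, 53.6 and 23.0 FPKM in the CPP-Se dogs. CPP-Se replicates 1 and 2 lay close together, and replicate 3 was well below them, so the coefficient of variation was 39.8% in the CPP-Se group against 14.5% in the control group. The group means were 79.6 ± 11.5 and 42.4 ± 16.9 FPKM. The log2 fold change was -0.97 (standard error 0.33, 95% interval -1.74 to -0.21, adjusted p = 0.231 from limma), and without CPP-Se replicate 3 it was -0.59 (adjusted p = 0.227).

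CSF2RA and CSF2RB encode the alpha and beta chains of the same receptor and lie on different chromosomes. CSF2RA (ENSCAFG00000011041, chromosome X, 832046 to 853876, plus strand) had 19.7, 24.0 and 25.7 FPKM in the control dogs and 10.1, 16.7 and 6.52 FPKM in the CPP-Se dogs. The CPP-Se dogs were spread more widely than the control dogs (coefficients of variation of 46.4% and 13.4%), with replicate 2 nearest to the control group. The group means were 23.1 ± 3.09 and 11.1 ± 5.15 FPKM, so that the control mean was 2.08 times the CPP-Se mean, the largest ratio among the 4 receptor genes. The log2 fold change was -1.07 (standard error 0.31, 95% interval -1.79 to -0.36, adjusted p = 0.188 from limma), and it ranged from -1.39 without CPP-Se replicate 2 (adjusted p = 0.126) to -0.77 without CPP-Se replicate 3 (adjusted p = 0.228). It had the fewest reads of the receptor genes, between 77 and 429 per dog.

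CSF2RB (ENSCAFG00000001519, chromosome 10, 27541647 to 27567278, minus strand) had 53.4, 44.9 and 48.7 FPKM in the control dogs and 30.4, 36.3 and 24.6 FPKM in the CPP-Se dogs. The control dogs differed little (coefficient of variation 8.71%), and no CPP-Se dog reached them. The means were 49.0 ± 4.27 and 30.4 ± 5.90 FPKM. The log2 fold change of -0.68 (standard error 0.20, 95% interval -1.15 to -0.22, adjusted p = 0.191 from limma) was the smallest of the 4, but its interval overlapped those of the other receptor genes.

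FLT3LG (ENSCAFG00000003636, chromosome 1, 107015223 to 107024708, minus strand) was the exception in direction. It had 9.36, 11.7 and 8.64 FPKM in the control dogs and 17.2, 15.5 and 19.7 FPKM in the CPP-Se dogs. Every CPP-Se dog lay above every control dog, with a lowest CPP-Se value 1.32 times the highest control value. The means were 9.89 ± 1.58 and 17.5 ± 2.14 FPKM, a ratio of 1.76. The log2 fold change was 0.76 (standard error 0.19, 95% interval 0.33 to 1.20), with the lowest adjusted p of the 5 (adjusted p = 0.162 from limma), although 238 of the genes tested had a lower p. The reads on FLT3LG were 115 to 371 per dog.

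**Figure D2:**
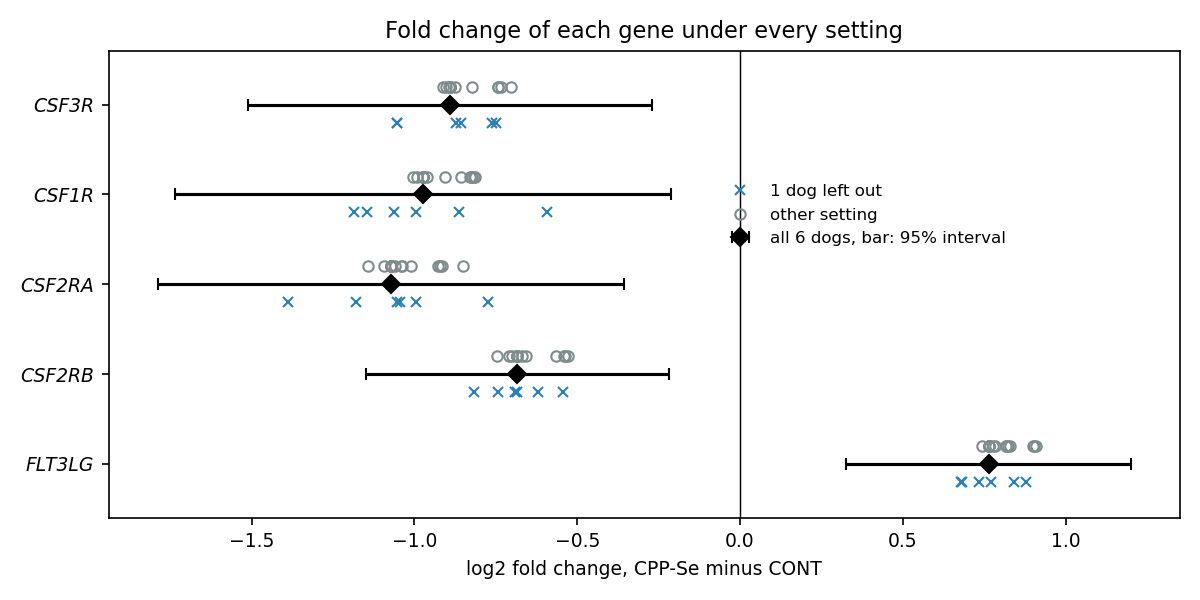
Log2 fold change of CPP-Se minus CONT for each gene. Diamonds with bars show the estimate from all 6 dogs on log2(FPKM + 1) with its 95% interval, crosses the estimates with 1 dog left out, and open circles the other settings. The 4 receptor genes lie below 0 and FLT3LG above 0 in every setting, and the crosses of CSF1R and CSF2RA are spread most widely.

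In the control group the genes were ordered, by mean FPKM, as CSF3R, CSF1R, CSF2RB, CSF2RA and FLT3LG. The first place was clear in every dog of both groups, with 9.04 to 17.4 times as many FPKM on CSF3R as on CSF1R. CSF1R exceeded CSF2RB in 5 dogs, but in CPP-Se replicate 3 the pair stood at 23.0 and 24.6 FPKM. CSF2RA exceeded FLT3LG in all control dogs, whereas in the CPP-Se group FLT3LG was the higher in replicates 1 and 3, and in replicate 2 they stood at 16.7 and 15.5 FPKM. For each receptor gene, the CPP-Se dogs had the same order from low to high, replicate 3, then 1, then 2, and for FLT3LG this order was turned round. With a common sum of FPKM, with or without the hemoglobin genes, and per read on genes, the receptor genes kept this order, but FLT3LG was no longer its reverse, since replicate 2 was the highest CPP-Se dog for all 5 genes. In the control group, the highest dog was replicate 3 for CSF3R, CSF1R and CSF2RA but replicate 1 for CSF2RB. These orders rest on 3 dogs per group and on genes measured in the same libraries.

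Ratios of FPKM between genes of a library do not depend on the scaling between libraries. Of 8 ratios compared between the groups, 2 were of this kind, and the other 6, taken on log2(FPKM + 1), can still shift with the scaling where genes are low. CSF2RB had 1.87 to 2.72 times the FPKM of its partner CSF2RA in the control dogs and 2.18 to 3.76 times in the CPP-Se dogs. The groups overlapped, and the mean log2 ratio differed by 0.45 (1.09 ± 0.30 and 1.54 ± 0.40, exact permutation test, two-sided, p = 0.2). Adjusted over the 8 ratios, this p and the others below were 0.686 or higher. The log2 ratio of CSF3R to CSF1R was 3.49 ± 0.26 in the control group and 3.59 ± 0.48 in the CPP-Se group, again with overlap (exact permutation test, p = 0.9). With 3 dogs against 3, this test cannot give a p under 0.1.

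The other 6 ratios set a member against marker genes of the blood cells that carry it. CSF3R was set against the mean log2(FPKM + 1) of 6 neutrophil genes, and its log2 ratio was 2.24 ± 0.39 in the control group and 1.72 ± 0.48 in the CPP-Se group, a difference of -0.52 with overlap (exact permutation test, two-sided, p = 0.3). CSF2RB against the same genes differed by -0.31 (p = 0.4 from the exact permutation test). CSF1R and CSF2RA, set against 8 monocyte genes, differed by -0.16 and -0.26 (exact permutation test, p = 0.6 and p = 0.5). FLT3LG against 12 T cell genes was -0.02 ± 0.20 in the control group and 0.04 ± 0.05 in the CPP-Se group, a difference of 0.07 (exact permutation test, p = 0.6), and against 8 NK and cytotoxic cell genes it differed by -0.14 (p = 0.5 from the exact permutation test). The groups overlapped in all 8 ratios.

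**Figure D3:**
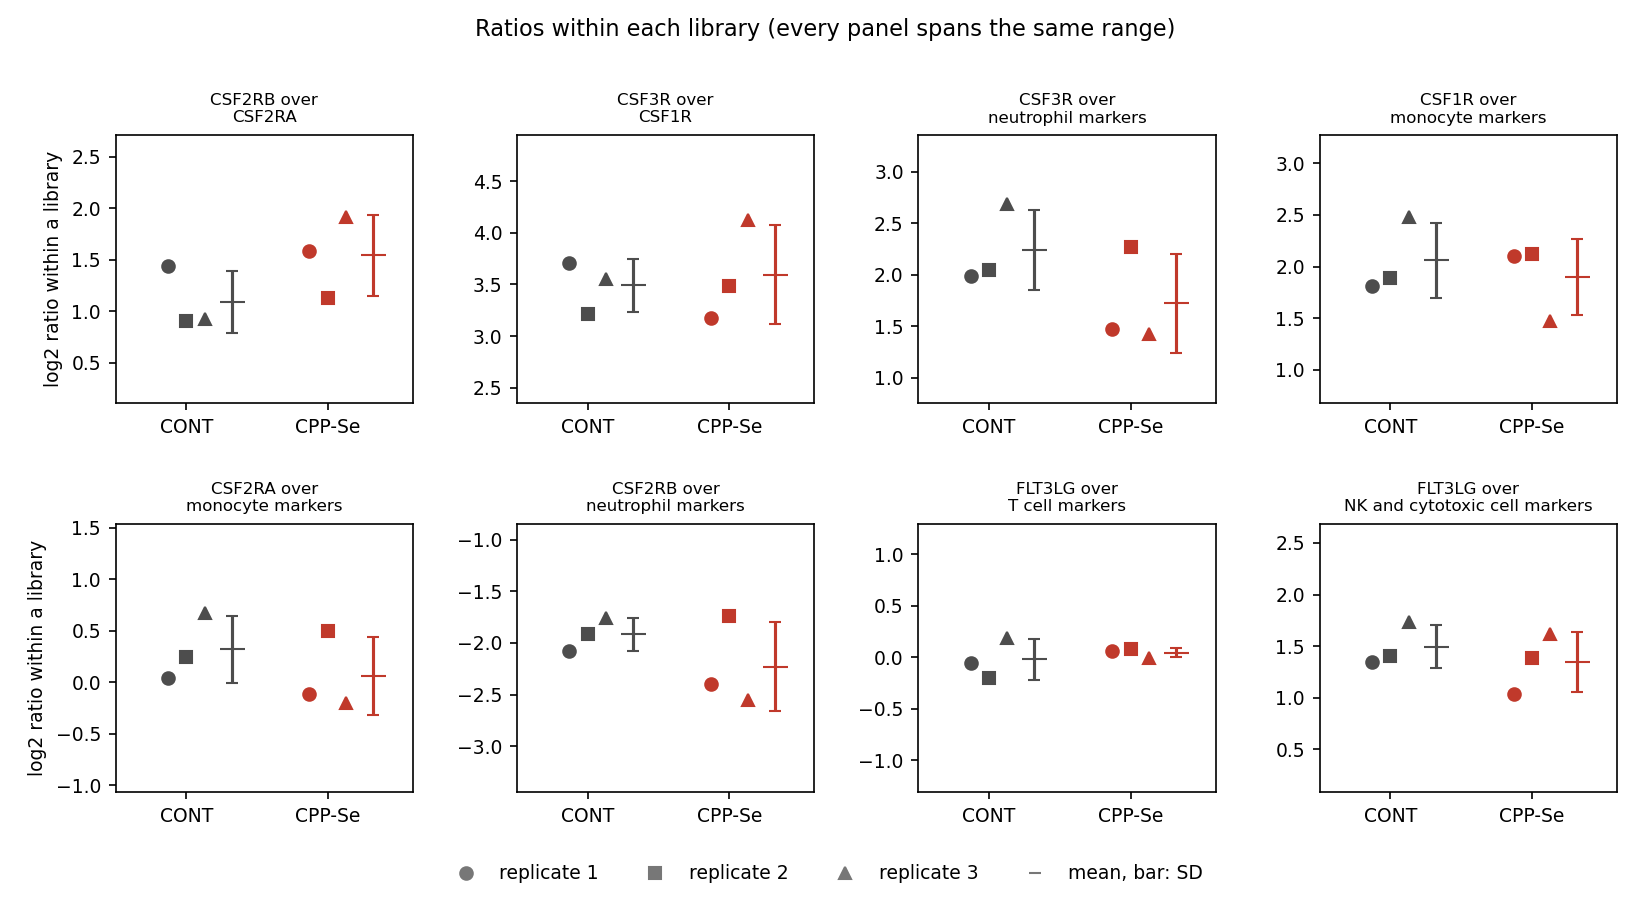
Log2 ratios within each library for the 3 CONT and 3 CPP-Se dogs, with the mean ± SD. The upper left panels set a receptor gene against another receptor gene (difference of log2 FPKM), and the others set a gene's log2(FPKM + 1) against the mean of a marker list. Every panel spans the same range, and the groups overlap in each of the 8.

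The marker genes of several blood cell types also differed in level between the groups, though none was called by limma, and their part in the results above was not tested beyond these ratios. Of 10 monocyte markers, 9 were in the file and 8 were tested. All 8 had negative log2 fold changes (median -0.80, against -0.0043 over all genes tested), and in 6 of them (beside 12.6% of all genes tested in this direction), among them LYZ (lysozyme), VCAN (versican) and CD163 (a hemoglobin scavenger receptor), the groups did not overlap. The negative value of CX3CR1 was slight (-0.03, with overlap). Summed expression of the list was 475 to 725 FPKM in the control dogs and 215 to 297 FPKM in the CPP-Se dogs. Most of this was LYZ (533 ± 124 and 211 ± 34.9 FPKM). FCN1 was at 0 reads in all dogs, and CD14 was not found by its symbol.

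Of 10 neutrophil markers, 6 were tested, since CXCR1, FPR1, FPR2 and S100A9 were not found by their symbols. The median log2 fold change was -0.68, 5 of the 6 were negative, and the groups did not overlap in 2, among them CXCR2 (beside 12.6% of all genes tested in this direction). The summed level overlapped between the groups, at 1227 to 2118 FPKM in the control dogs and 1244 to 1788 FPKM in the CPP-Se dogs. MMP9, a gelatinase stored in neutrophil granules, had a positive log2 fold change and 729, 23.7 and 540.0 FPKM in the CPP-Se dogs, against 68.3 to 96.3 FPKM in the control dogs.

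The lymphocyte markers lay on the other side. All 12 T cell markers were tested and had positive log2 fold changes (median 0.74), with no overlap between the groups in 7 (beside 10.4% of all genes tested in this direction), and their sum was 109 to 225 FPKM in the control dogs and 249 to 318 FPKM in the CPP-Se dogs. For the NK and cytotoxic cell markers, 8 of 10 were tested, all positive (median 0.90), and their sum was 20.7 to 42.5 FPKM against 56.4 to 84.7 FPKM. The B cell markers, 9 of 10 tested, had a median of 0.65, with 8 positive and 1 negative (BANK1, -0.12). The groups did not overlap in 4 of them (beside 10.4% of all genes tested in this direction). The B cell sums did not overlap either (278 to 402 and 425 to 467 FPKM). Most of these sums was CD79A (289 ± 49.7 and 346 ± 46.3 FPKM), whose own groups overlapped. None of the genes of these lists was called by limma with Benjamini-Hochberg adjustment. An unadjusted p under 0.05 was found for 6 monocyte, 4 neutrophil, 6 T cell, 4 NK and cytotoxic and 4 B cell genes, beside 9.1% of all genes tested in the lower direction, that of the first 2 lists, and 6.87% in the higher. The negative binomial model called 5, 2, 5, 4 and 2 of them in the same order, beside 4.78% lower and 3.38% higher over all genes. With sample quality weights, limma-voom called 2, 1, 2, 2 and 0, beside 1.06% lower and 0.528% higher over all genes. Without weights it called 0.

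**Figure D4:**
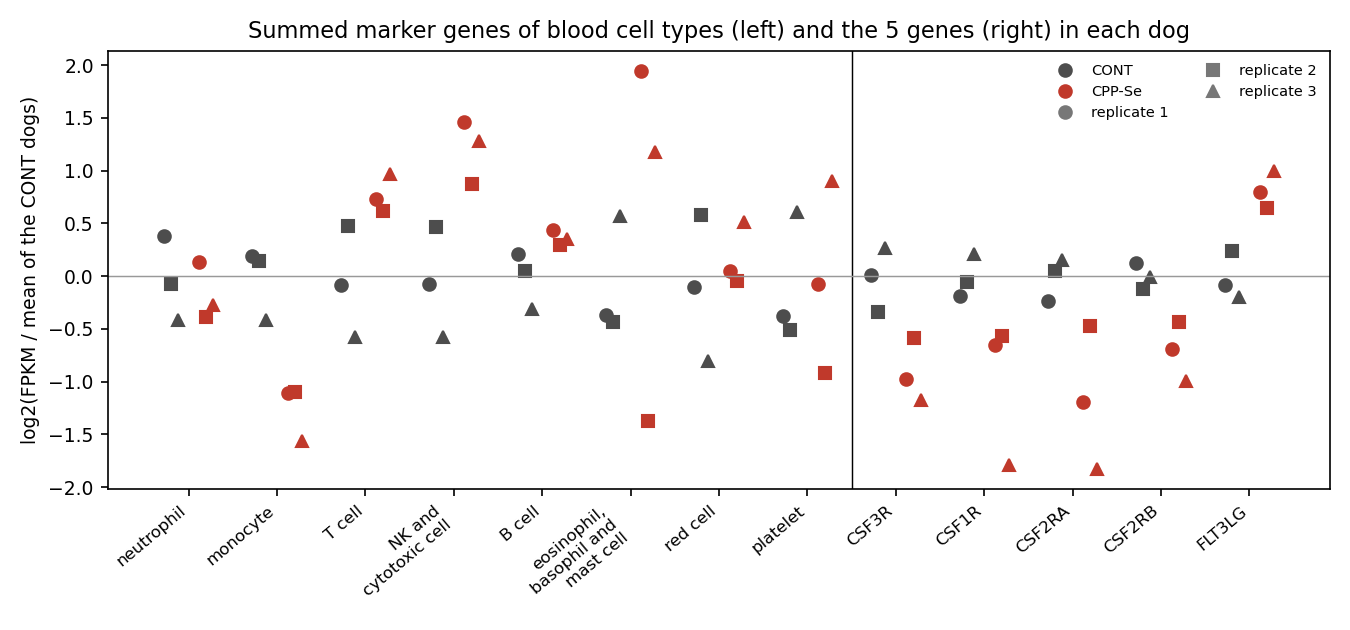
Summed FPKM of the marker genes of blood cell types (left of the line, lists with at least 4 genes tested) and FPKM of the 5 genes (right), as log2 of the ratio to the mean of the CONT dogs, for each dog. The monocyte sums of the CPP-Se dogs lie below and the T cell, NK and cytotoxic cell and B cell sums above all CONT dogs, while the neutrophil, red cell and platelet sums overlap.

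The other genes of the pathway were described from 7 lists, ordered by role, with 48 genes in all. Of these, 46 were in the file and 38 were tested, and 0 were called by limma (lowest Benjamini-Hochberg adjusted p = 0.138). Without adjustment, 10 had a p under 0.05 in the lower and 3 in the higher direction, beside 9.1% and 6.87% of all genes tested. The groups did not overlap in 12 genes with the CPP-Se dogs below (beside 12.6% of all genes tested) and in 3 with the CPP-Se dogs above (beside 10.4% of all genes tested), so the higher side was not above the share over all genes. The median log2 fold change was -0.22. The negative binomial model called 7 as lower and 2 as higher, beside 4.78% and 3.38% of all genes tested. With sample quality weights, limma-voom called GAB2 and CEBPB as lower and 0 as higher, beside 1.06% and 0.528% of all genes tested. Without weights it called 0.

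The ligands of the receptors were scarce in blood RNA. CSF2, CSF3 and IL3 had 0 reads in all 6 dogs, where up to 3 reads cannot be told from 0 (a limit of counting alone). IL5 had 3 reads in control replicate 3 and 0 in the others. The ligands of CSF1R were detected, with 1.49 ± 0.37 and 1.34 ± 0.22 FPKM for CSF1 and 3.69 ± 0.95 and 3.80 ± 1.69 FPKM for IL34 in the control and CPP-Se groups. Their log2 fold changes were -0.08 and -0.0049, and their groups overlapped.

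FLT3, the receptor that FLT3LG binds, was below the level of testing, at 13, 14 and 27 reads in control replicates 1, 2 and 3, and at 15, 23 and 1 in the CPP-Se replicates. Among the receptors that share CSF2RB, IL5RA averaged 2.23 ± 0.94 FPKM (control) and 0.992 ± 0.667 FPKM (CPP-Se), with overlap. IL3RA, the alpha chain of the interleukin 3 receptor, went from 0.202 to 1.39 FPKM in the control dogs and stood at 6.65, 0.0322 and 7.10 FPKM in CPP-Se replicates 1, 2 and 3, so CPP-Se replicates 1 and 3 lay above all control dogs. CPP-Se replicate 2 had 1 read and control replicate 2 had 3, which cannot be told apart. The summed eosinophil, basophil and mast cell markers (6 of 7 in the file) were likewise higher in CPP-Se replicates 1 and 3 than in any control dog, with 48.3, 4.85 and 28.2 FPKM against 9.30 to 18.6 FPKM in the control dogs. EPOR, the erythropoietin receptor, had 8.43 ± 3.74 and 7.01 ± 3.68 FPKM with overlap, and KIT, the receptor of stem cell factor, had at most 11 reads in any dog.

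Of the kinases and STATs that carry the signal, 7 of 10 had negative log2 fold changes (median log2 fold change -0.33). The groups did not overlap in 4 of the 10, among them SYK, LYN and STAT3, all lower in the CPP-Se dogs (beside 12.6% of all genes tested). SYK had the most negative log2 fold change of the list (-0.68, standard error 0.21, adjusted p = 0.197 from limma), with 99.4 to 126 FPKM in the control dogs and 56.6 to 78.2 FPKM in the CPP-Se dogs, and FES, a tyrosine kinase of myeloid cells, had the most positive (0.23, with overlap). JAK2, which binds the receptor chains, had 7.47 ± 1.26 and 5.40 ± 0.94 FPKM with overlap. The transcription factors STAT5A and STAT5B overlapped between the groups as well, with log2 fold changes of -0.10 and -0.25.

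Of the adaptors and PI3K genes, GAB2, a docking protein downstream of the receptors, had the most negative log2 fold change, with 22.9 to 28.4 FPKM in the control dogs and 11.7 to 16.9 FPKM in the CPP-Se dogs (-0.80, standard error 0.20, adjusted p = 0.162 from limma). SOS1 did not overlap either (-0.53), so 2 of the 7 tested were apart, both lower (beside 12.6% of all genes tested). The other 5 overlapped, and SHC1 had the most positive log2 fold change (0.11). Among the negative regulators, CBL, a ubiquitin ligase that marks activated receptors for degradation, had 28.7 ± 1.53 and 18.1 ± 2.73 FPKM without overlap (log2 fold change -0.65). SOCS1, an inhibitor of JAK kinases, lay on the other side with 1.85 to 5.65 FPKM in the control dogs and 27.1, 5.68 and 6.60 FPKM in the CPP-Se dogs. Its groups were set apart by little and CPP-Se replicate 1 stood far above the other dogs. Its log2 fold change was 1.33 (standard error 0.56).

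The myeloid transcription factors govern expression of these receptors during differentiation. Of the 6 tested, CEBPB and SPI1 were lower in all CPP-Se dogs (beside 12.6% of all genes tested) and the other 4 overlapped. The median log2 fold change of the list was 0.0061, with 3 positive and 3 negative values. CEBPB had 192 to 213 FPKM in the control dogs and 99.2 to 108 FPKM in the CPP-Se dogs (log2 fold change -0.93, standard error 0.18, adjusted p = 0.138 from limma), and SPI1, which encodes PU.1, had 309 ± 24.5 and 205 ± 30.4 FPKM. CEBPE had the most positive log2 fold change (0.58, standard error 0.53). The response genes were divided. MCL1, which protects neutrophils from apoptosis, had 125 ± 12.5 and 83.2 ± 11.1 FPKM. BCL2L1, another survival gene that is also high in red cell precursors, had 37.5 ± 6.20 and 72.6 ± 18.7 FPKM and a log2 fold change of 0.92 (standard error 0.24), and MYC had one of 0.42. The 8 red cell markers had a median log2 fold change of 0.44 and overlapping sums.

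**Figure D5:**
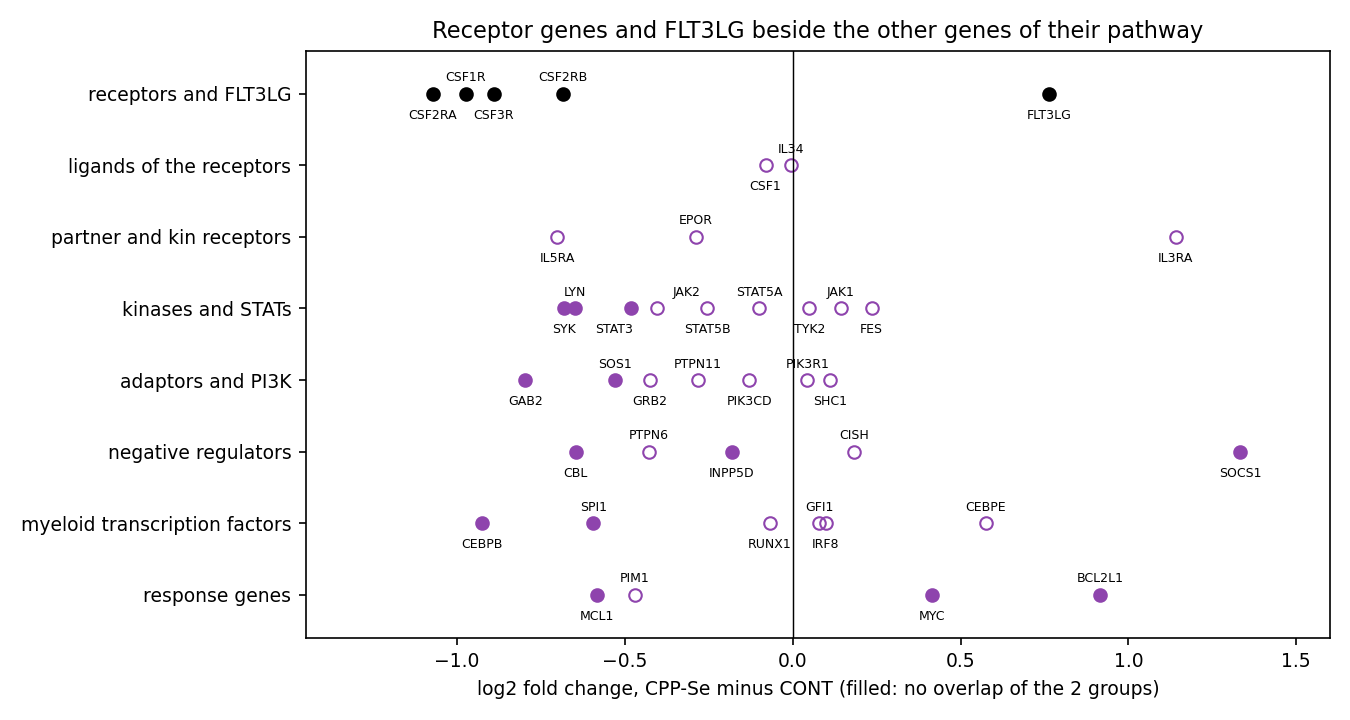
Log2 fold change, CPP-Se minus CONT, of the 5 genes (black, top) and of genes tested in 7 lists of their pathway (purple, not every gene is drawn). Filled circles are genes whose groups do not overlap. Most filled circles of the pathway lists lie on the lower side, and 3, SOCS1, BCL2L1 and MYC, on the higher side.

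The genes whose profile over the 6 dogs was nearest to each member were found by the root mean square difference of log2(FPKM + 1) after each gene was centred on its mean. CSF3R was nearest to TMEM189, NADK and COA6 (0.0860 to 0.0998), and CSF2RB was nearest to USP2, MMP25 (a membrane-bound metalloproteinase of neutrophils) and SGMS1 (0.0519 to 0.0656). CSF1R was nearest to genes that included APOBR and TNFAIP2 (0.144 and 0.169), and CSF2RA to SVBP, RAB31 and IL1RN, the interleukin 1 receptor antagonist (0.184 to 0.192). The closest pair among the members was CSF2RB and CSF3R (0.186), with 92 tested genes with a symbol nearer to CSF3R than CSF2RB was and 263 nearer to CSF2RB than CSF3R was. CSF1R and CSF2RA followed (0.202), with 6 such genes nearer to CSF2RA than CSF1R was and 9 nearer to CSF1R than CSF2RA was. CSF2RA and CSF2RB, the chains of the same receptor, were farther apart (0.326), with 121 such genes nearer to CSF2RA than CSF2RB was and 1493 nearer to CSF2RB than CSF2RA was. FLT3LG was nearest to RNF157, CD5 (a surface protein of T cells) and ESRP2 (0.0524 to 0.0824), and all 4 receptor genes were at least 0.787 from it. These distances cover 6 dogs and describe the libraries only.

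No gene in the file overlapped any of the 5. The nearest neighbor of FLT3LG, RPL13A on the same strand, ended 956 bases away and averaged 839 ± 85.9 FPKM (control) and 614 ± 164 FPKM (CPP-Se), with overlap, in the direction opposite to FLT3LG. CSF1R lay 1273 bases from HMGXB3 on the other strand, which had 3.23 ± 0.86 and 3.36 ± 0.80 FPKM, while PDGFRB, its neighbor on the other side, had at most 5 reads in a dog. MRPS15 beside CSF3R had 7.39 ± 1.45 and 4.47 ± 1.25 FPKM with overlap, and NCF4, an NADPH oxidase subunit gene beside CSF2RB, had 140 ± 13.4 and 98.9 ± 29.0 FPKM without overlap. CRLF2, on one side of CSF2RA, had 0 to 5 reads in the control dogs and 6 to 43 reads in the CPP-Se dogs.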

How the data were processed

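Per the labels and the study's methods, whole blood RNA of 3 control and 3 CPP-Se dogs was enriched for poly-A RNA, prepared with a NEBNext Ultra kit and sequenced as paired ends. The authors aligned the reads to the Ensembl release 100 dog genome with HISAT2 2.0.5 and deposited FPKM per gene, computed from gene length and the reads on the gene. The submitters' processing notes also name fastp 0.19.7 and featureCounts 1.5.0-p3, and the use of strand and of shared reads is not given in the sources used here.

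Dogs were grouped by their titles. Genes averaging 1 FPKM or more were tested on log2(FPKM + 1), which understates the change of low genes, by limma 3.58.1 in R 4.3.3 (eBayes with trend, two-sided, Benjamini-Hochberg adjustment). A call required 1.5-fold or more and an adjusted p below 0.05. Ratios were compared by exact permutation tests in scipy 1.17.1. The negative binomial model, a mean per group with dispersions shrunk to a trend and a two-sided Wald test, was an alternative. Fits were tested on simulated data. The members and lists were chosen with earlier results of these data known. Genes were named by a rule: the members, the largest increase and decrease in each pathway list (or the genes called), all ligands and kin receptors, the 3 nearest profiles, the neighbors, and markers at 0 reads in every dog. The other markers named with values, and LYN, STAT3, STAT5A, STAT5B, JAK2, SOS1, SPI1 and MYC, were named after their values were seen. A few genes that the rule names are not reported here.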

Additional observations from a re-analysis of the deposited data

How the results depend on the processing

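All 5 genes kept their direction in all 21 alternatives, of which scaling to reads on genes was added after seeing the data. None was called in any of them except under the negative binomial model of the recovered reads, which called all 5, with log2 fold changes of -0.91 for CSF1R (adjusted p = 0.0409), -1.04 for CSF2RA (adjusted p = 0.0101), -0.69 for CSF2RB (adjusted p = 0.0197), -0.89 for CSF3R (adjusted p = 0.0139) and 0.82 for FLT3LG (adjusted p = 0.00203), by the two-sided Wald test with Benjamini-Hochberg adjustment. That model called 804 genes in all, and the cause of its higher count was not tested. The paper used DESeq2 with the same thresholds and counts CSF3R, CSF2RA and CSF2RB among its down-regulated genes. With 1 dog left out, the log2 fold changes were -1.19 to -0.59 for CSF1R, -1.39 to -0.77 for CSF2RA, -0.82 to -0.54 for CSF2RB, -1.05 to -0.75 for CSF3R and 0.68 to 0.88 for FLT3LG. The number of genes called moved from 3 to 0 with a pseudocount of 0.1 and with no filter, 12 with a common sum of FPKM, 23 when scaled to reads on genes, 1 with limma-voom, 156 with limma-voom with sample quality weights, and 0 to 14 with 1 dog left out (14 without CPP-Se replicate 2). A common sum of FPKM moved the median log2 fold change of all genes to 0.13 (0.12 without the hemoglobin genes and 0.12 per read on genes), and relative to the median the 4 receptor genes stayed at -0.57 or below and FLT3LG at 0.77 or above in all 5 other scalings. Of the 5 genes, the groups of FLT3LG alone stayed apart with a common sum, with or without hemoglobin, and per read on genes. Of the ratios, CSF3R over CSF1R turned to -0.04 without control replicate 2 and -0.16 without CPP-Se replicate 3 (range with 1 dog left out -0.16 to 0.31), CSF1R over monocyte markers to 0.0487 without control replicate 3 and 0.0520 without CPP-Se replicate 3 (range -0.28 to 0.0520), FLT3LG over T cell markers to -0.0237 without control replicate 2 (range -0.0237 to 0.17), and FLT3LG over NK and cytotoxic cell markers to 0.00975 without CPP-Se replicate 1 (range -0.28 to 0.00975) and to 0.10 with only the list members outside the study's table of DEGs. The other ratios kept their sign but moved by over 1.5 times with 1 dog left out. CSF2RB over CSF2RA was 0.26 without CPP-Se replicate 3 and at most 0.66, CSF3R over neutrophil markers -0.30 without control replicate 3 and -0.79 without CPP-Se replicate 2, CSF2RA over monocyte markers -0.08 without control replicate 3 and -0.48 without CPP-Se replicate 2, and CSF2RB over neutrophil markers -0.15 without CPP-Se replicate 3 and -0.56 without CPP-Se replicate 2. With only the list members outside that table, CSF1R and CSF2RA over monocyte markers were -0.41 and -0.51, CSF2RB over neutrophil markers -0.48 and FLT3LG over T cell markers 0.21. With the median of the list, FLT3LG was 0.28 over T cell and -0.01 over NK and cytotoxic cell markers. None of these differences passed a test.

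The replicate numbers do not pair the dogs: the deviations from the group means of dogs with the same number had correlations of 0.02, -0.09 and -0.04. With replicate number as a block, 1 gene was called in place of 3 and none of the 5 genes.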

Other observations

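Markers of immature myeloid cells were near the floor of detection. MPO, ELANE and CD34 had 0 to 2 reads per gene in the control dogs and 1 to 19 in the CPP-Se dogs, PROM1 had 0 in all dogs, and PRTN3 and AZU1 were not found by their symbols. Most counts of the single genes were 3 or fewer, which cannot be told from 0. Summed over the list, the control dogs had 3, 0 and 2 reads and the CPP-Se dogs 12, 34 and 8 reads (replicates 1 to 3), and the summed expression was 0 to 0.202 FPKM against 0.525 to 1.04 FPKM, without overlap and with no test. None of the 4 genes in the file reached the mean of 1 FPKM needed for testing. Of the dendritic cell markers, CLEC10A averaged 2.16 ± 0.50 FPKM (control) and 1.04 ± 0.31 FPKM (CPP-Se), with groups that did not overlap, BATF3 overlapped between the groups, and the sum of the list overlapped too. The platelet markers had a median log2 fold change of -0.02 and overlapping sums.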
